A study of Homo sapiens with 8 samples.

Results

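Nucleolar ribosome biogenesis factors are described here as 40 genes chosen by name. They are genes of rRNA synthesis, rRNA processing and nucleotide supply that are known as MYC-driven. No measured value entered the rule, but the genes were chosen with earlier results of these data known. Of the 26475 genes in the table, all 40 were found, 39 under their own symbol and UTP4 under its older symbol CIRH1A. All 40 were among the 12401 genes with enough counts to be tested. Bulk RNA was sequenced from MOLM-13, a human acute myeloid leukemia line with the KMT2A-AF9 fusion, labelled wild type in all 4 groups. The groups were the combination of VTP50469 and WM119, VTP50469 alone, WM119 alone, and DMSO, the solvent control. Each had 2 libraries. VTP50469 blocks the binding of Menin to the KMT2A protein. The second compound, spelled WM119 in the labels and WM1119 in the study's methods, inhibits the histone acetyltransferase KAT6A. Neither dose nor duration of the treatments was found in the labels or the methods. Whether the paired libraries within each group were grown as separate cultures is not stated either. The p-values then measure only the spread between these samples, which may be technical. All libraries came from 1 cell line, so they hold no spread between patients.

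Ribosomes are assembled in the nucleolus, where RNA polymerase I transcribes the rRNA precursor. Small nucleolar ribonucleoproteins (snoRNPs) modify that precursor, and separate sets of processing factors carve from it the small and the large ribosomal subunit. MYC, a transcription factor that binds the E-box CACGTG, is known to drive many genes of this pathway, and the pathway is active in proliferating leukemia cells. When myeloid cells mature and leave the cell cycle, ribosome production is known to decline.

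The E-box was common in the promoters of these genes and lay close to the transcription start. RefSeq promoters (GRCh38.p14, 250 bases before to 50 bases after the start) matched 32 of the 40 genes. CACGTG, which reads the same on both strands, stood in 12 of these 32 promoters (37.5%), against 7.26% of all 35116 promoters of that length and 10.5% of 9716 promoters of tested genes. In 11 of the 32 (34.4%) it lay within 50 bases of the start, against 4.24% of the promoters of tested genes. Counted from the start base as 0, the E-box began at -16 in UTP4, -15 in NAT10, -10 in UTP20, -5 in RRP9, 3 in WDR43, 6 in FBL, 13 in PES1, 14 in MRTO4, 28 in BYSL, 28 in LTV1 and 35 in NOP2. Only in SRM did it lie farther off, at -199. Palindromic motifs of 2 other factors were found in fewer of these promoters. That of NRF1 stood in 3 of the 32 (9.38%), against 1.24% of all promoters, so it too was more frequent here. That of BANP stood in 0 of the 32, against 0.424%. A match describes the letters of the sequence and is not evidence of binding. The 40 genes were chosen as MYC-driven, and MYC binds CACGTG, so its frequency here is not independent of the choice.

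Promoters of 5 genes are printed 5′ to 3′ on the gene's strand, with the E-box in capitals. They show the E-box beside the start in 3 small-subunit factors, and the same in FBL, whose level was not lower in the combination group. They also show the lack of the hexamer in TSR1, the only one of the 40 called lower in the main edgeR test (all libraries, TMM scaling). UTP20 lies at chr12:101279855-101280154 (plus strand), UTP4 at chr16:69132399-69132698 (plus), WDR43 at chr2:28894417-28894716 (plus), FBL at chr19:39846330-39846629 (minus) and TSR1 at chr17:2336408-2336707 (minus).
UTP20: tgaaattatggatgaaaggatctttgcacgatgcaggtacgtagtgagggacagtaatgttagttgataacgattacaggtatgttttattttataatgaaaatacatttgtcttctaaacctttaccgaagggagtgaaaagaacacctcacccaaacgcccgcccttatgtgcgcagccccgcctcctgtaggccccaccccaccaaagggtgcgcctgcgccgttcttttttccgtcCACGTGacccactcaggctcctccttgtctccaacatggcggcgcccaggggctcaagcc
UTP4: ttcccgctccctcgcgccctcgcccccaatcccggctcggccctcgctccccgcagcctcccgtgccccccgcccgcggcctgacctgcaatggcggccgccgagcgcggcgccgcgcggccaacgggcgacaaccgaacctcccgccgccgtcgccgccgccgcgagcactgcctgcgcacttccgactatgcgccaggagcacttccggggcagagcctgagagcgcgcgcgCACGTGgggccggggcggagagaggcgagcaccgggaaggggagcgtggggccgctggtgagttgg
WDR43: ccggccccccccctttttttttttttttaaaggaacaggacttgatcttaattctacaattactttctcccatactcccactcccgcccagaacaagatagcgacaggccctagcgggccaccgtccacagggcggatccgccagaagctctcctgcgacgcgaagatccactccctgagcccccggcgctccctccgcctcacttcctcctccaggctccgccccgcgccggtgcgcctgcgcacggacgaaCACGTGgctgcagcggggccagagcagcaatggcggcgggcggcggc
FBL: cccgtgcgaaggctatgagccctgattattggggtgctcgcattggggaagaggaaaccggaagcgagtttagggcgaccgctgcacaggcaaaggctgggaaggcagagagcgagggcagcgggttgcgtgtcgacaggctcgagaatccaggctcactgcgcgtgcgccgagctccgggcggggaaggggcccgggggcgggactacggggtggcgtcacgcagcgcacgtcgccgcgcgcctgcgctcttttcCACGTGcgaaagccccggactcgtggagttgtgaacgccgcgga
TSR1: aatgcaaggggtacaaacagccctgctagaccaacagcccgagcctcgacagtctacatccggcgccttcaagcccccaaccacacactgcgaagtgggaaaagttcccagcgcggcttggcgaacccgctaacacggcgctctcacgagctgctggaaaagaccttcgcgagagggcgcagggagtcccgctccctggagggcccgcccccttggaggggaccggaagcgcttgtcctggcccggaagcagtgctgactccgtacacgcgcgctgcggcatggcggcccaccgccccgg

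Library totals ran between 18092906 and 23634468 counts. Combination replicate 2 stood apart from the rest: 12972 genes had counts in it, against 14142 to 14544 in the other libraries. Its log2 ratios to the DMSO mean also decreased with transcript length over all genes, by more than in any other treated library, and WM119 replicate 1 showed the same trend at a smaller size. The main results are therefore given with and without combination replicate 2. Every one of the 40 genes reached at least 42.7 CPM (depth-normalised counts, scaled by TMM factors) in every library. The 7 markers of MOLM-13 identity were CD33, ANPEP, FLT3, MEIS1, HOXA9, SPI1 and PTPRC. Summed, they stood at 658 to 707 CPM in the combination group and 582 to 593 CPM with VTP50469. The sum was 670 to 683 CPM with WM119 and 624 to 639 CPM in DMSO. In the combination, WM119 and DMSO groups 1 of the 7 was at 0, and the sum does not show the direction of each marker. The 3 erythroid markers were at 0 in all libraries, and 4 markers of T and NK cells summed to 33.2 to 84.3 CPM in the combination and 22.1 to 25.1 CPM in DMSO. Markers of monocyte and granulocyte maturation (CD14, ITGAM, CSF1R, LYZ, FCGR1A, S100A8, S100A9) summed to 6502 to 8730 CPM in the combination group, 1818 to 2269 CPM in VTP50469, 1533 to 1600 CPM in WM119 and 563 to 618 CPM in DMSO. Their part in the values below was not tested. In bulk RNA, fewer cells of a type and less RNA per cell cannot be told apart.

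Most of the 40 genes stood lower in cells that received both inhibitors than in DMSO cells, by a modest amount, and few single genes passed the test across the genome. The summed level of the 40 genes was 11540 and 12990 CPM in the combination libraries, 14000 and 14210 CPM with VTP50469, 14130 and 13280 CPM with WM119, and 15100 and 14940 CPM with DMSO. Every treated library lay below both DMSO libraries on this sum, and both combination libraries lay below all others. Abundant genes weigh most in the sum, above all NPM1 (3048 and 3026 CPM in DMSO) and NCL (2317 and 2256 CPM). DDX21 had 192 CPM in combination replicate 2 and 779 CPM in WM119 replicate 2. The order of these 2 libraries on the sum rests on that gene. In combination replicate 1, 38 of the 40 genes were below both DMSO libraries and 1 was above both, with a median log2 ratio to the DMSO mean of -0.40. In combination replicate 2, 23 were below and 13 above, with a median of -0.19. The share of all genes was not counted for single libraries, so these counts have no background beside them.

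**Figure D1:**
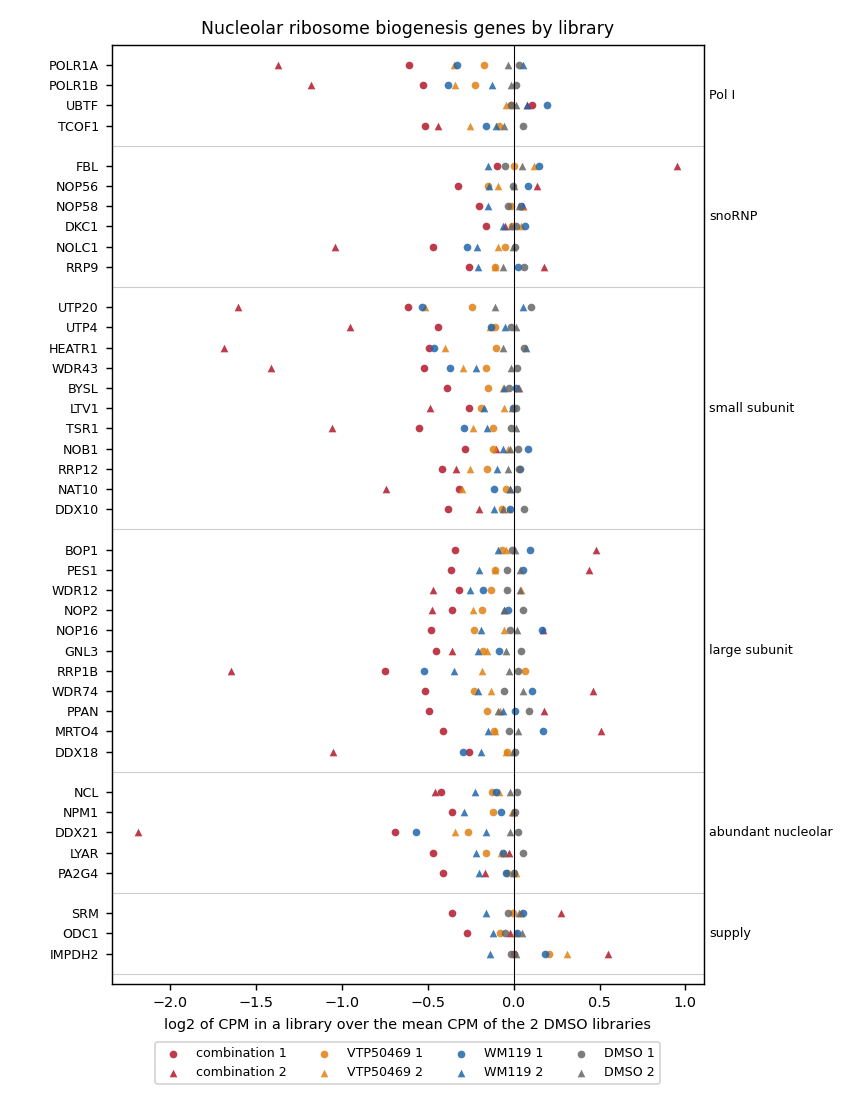
Each of the 40 genes in each library, as the log2 ratio of its CPM to the mean CPM of both DMSO libraries, grouped by role (Pol I, RNA polymerase I). Circles are replicate 1 and triangles replicate 2. Combination replicate 1 sits left of 0 for nearly all genes (median -0.40), while combination replicate 2 spreads between -2.19 for DDX21 and 0.95 for FBL.

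In edgeR's quasi-likelihood test with Benjamini-Hochberg adjustment over all 12401 genes, 1 of the 40 genes fell in the combination group against DMSO, TSR1, and 0 rose. Across all tested genes, 3.44% were called lower and 5.85% higher, so 1 of 40 (2.5%) is near the background. At an unadjusted p under 0.05, 19 of the 40 were lower and 0 higher, where 13.4% of all genes were lower and 16.9% higher. The log2 change was below 0 in 33 of the 40 genes, against 49.4% of all genes, and its median was -0.29, against 0.01 over all genes. Both combination libraries lay below both DMSO libraries in 23 genes (30.9% of all genes did so), and above them in 1, UBTF (29% of all genes).

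The call depended on which combination library was kept. Without combination replicate 2, 15 of the 40 genes fell and 0 rose, against 5.6% of all genes called lower and 8.9% called higher, and 38 were below 0 with a median of -0.39. Without combination replicate 1, 19 fell and 6 rose, against 31.9% of all genes called lower and 28.9% called higher. The 2 sets of falling genes shared 12. In both of these fits the remaining combination library was assumed to vary like the other groups. With 1 library fewer in DMSO, VTP50469 or WM119, no call remained among the 40. In at least 1 of these fits the calls over all genes were also far fewer than with 8 libraries. The lost calls are therefore no result about the 40 genes alone. Across all fits with 1 library left out, the median log2 change of the 40 ran between -0.39 and -0.20. DESeq2, run on all 8 libraries, called 13 lower and 0 higher, against 5.89% of all genes lower and 7.86% higher, and 11 of the 13 were also among the 15.

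Genes of rRNA transcription were lower in the combination group, with the exception of UBTF. Without combination replicate 2, 3 of the 4 fell, POLR1A, POLR1B and TCOF1. With all libraries edgeR called 0 of the 4, and DESeq2 called the same 3 lower. POLR1A encodes the largest subunit of RNA polymerase I. Its level was 120 and 70.6 CPM in the combination libraries, 162 and 144 CPM with VTP50469, 145 and 189 CPM with WM119, and 187 and 178 CPM with DMSO. Both combination libraries were below all 6 others, while WM119 overlapped DMSO. The log2 change, combination over DMSO, was -0.94 ± 0.26 (SE), with an edgeR adjusted p = 0.0692, and -0.60 without combination replicate 2. POLR1B, the second-largest subunit, was at 82.9 and 52.7 CPM in the combination, 102 and 94.4 CPM with VTP50469, 91.6 and 110 CPM with WM119, and 121 and 118 CPM with DMSO. All 6 treated libraries were below both DMSO libraries. Its log2 change was -0.82 ± 0.22 (edgeR adjusted p = 0.0671), and -0.51 without combination replicate 2. TCOF1, which encodes treacle, a scaffold of the nucleolar transcription sites, had 273 and 288 CPM in the combination libraries, 368 and 328 CPM with VTP50469, 350.0 and 364 CPM with WM119, and 406 and 375 CPM with DMSO. Here the combination libraries lay close together and below all others, at a log2 change of -0.48 ± 0.12 (edgeR adjusted p = 0.0594). UBTF, the factor that holds active rRNA genes open, had 330.2 and 323 CPM in the combination, 303 and 297 CPM with VTP50469, 351 and 324 CPM with WM119, and 303 and 310 CPM with DMSO. Its log2 change was 0.09 ± 0.11 with TMM scaling and -0.02 with library size alone, and neither was called.

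Among the snoRNP proteins only FBL had an estimate above 0, and the combination libraries differed from one another in most of them. NOLC1, a chaperone that brings snoRNPs together in the nucleolus, had 409 and 275 CPM in the combination libraries, 545 and 531 CPM with VTP50469, 468 and 487 CPM with WM119, and 567 and 563 CPM with DMSO. All treated libraries were below both DMSO libraries, the combination by the most, at a log2 change of -0.73 ± 0.19 (edgeR adjusted p = 0.0614), or -0.45 without combination replicate 2. FBL, or fibrillarin, is the methyltransferase of the box C/D snoRNPs. It had 399 and 824 CPM in the combination, 427 and 464 CPM with VTP50469, 472 and 384 CPM with WM119, and 412 and 442 CPM with DMSO. The combination libraries were 2.06-fold apart, replicate 2 over replicate 1, on either side of all other libraries but 1. The log2 change of FBL was 0.52 ± 0.31 with both libraries and -0.08 ± 0.14 without replicate 2, and neither passed the test. Without replicate 1, FBL rose, at 0.94 ± 0.13 (edgeR adjusted p = 0.000729). For the remaining snoRNP proteins, namely NOP56 and NOP58 of the box C/D core, DKC1 of the box H/ACA pseudouridine synthase and RRP9 of the U3 particle, the log2 changes lay between -0.11 and -0.03. Without replicate 2 all 6 of the group were below 0, and NOLC1 fell.

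The 11 factors of small subunit processing were all below 0 in the combination, with a median log2 change of -0.51, and TSR1 fell. TSR1 encodes a GTPase-like protein that rides on late precursors of the small subunit. It stood at 149 and 105 CPM in the combination libraries, 200 and 185 CPM with VTP50469, 178 and 195 CPM with WM119, and 216 and 220 CPM with DMSO (means of 127 ± 31.2 CPM in the combination and 218 ± 3.08 CPM in DMSO, SD, n = 2 each). All 6 treated libraries were below both DMSO libraries, and both combination libraries were below the single treatments. The log2 change was -0.78 ± 0.18 (edgeR adjusted p = 0.0461). TSR1 also fell without combination replicate 2 (log2 -0.54), without replicate 1 (-1.07) and with DESeq2 (-0.78), but was not called with library size alone (-0.87, edgeR adjusted p = 0.0755). The call was also lost with limma voom and library weights, with a replicate block, with only the groups compared, and when any 1 library of DMSO, VTP50469 or WM119 was left out. UTP4, named cirhin, belongs to the subcomplex of the small-subunit processome that first joins the rRNA precursor. Its level was 107 and 74.9 CPM in the combination, 135 and 132 CPM with VTP50469, 133 and 140.3 CPM with WM119, and 144 and 147 CPM with DMSO. The single treatments were slightly below DMSO and the combination well below both, at a log2 change of -0.67 ± 0.18 (edgeR adjusted p = 0.0630), or -0.43 without combination replicate 2. The processome components UTP20, HEATR1 and WDR43 had log2 changes of -1.03, -0.97 and -0.90, and combination replicate 2 stood at 0.50, 0.44 and 0.54 times replicate 1. Without that replicate their values were -0.60, -0.48 and -0.51, next to -0.54 for TSR1. With all libraries NAT10, the cytidine acetyltransferase of small-subunit rRNA, was at -0.51 (-0.30 without replicate 2), RRP12, an export factor, at -0.38, and LTV1, an assembly factor, at -0.37. DDX10, an RNA helicase, was at -0.29, NOB1, the endonuclease that trims the end of small-subunit rRNA, at -0.19, and BYSL, or bystin, at -0.17. None of these 9 factors passed the edgeR test with all libraries. Without replicate 2, UTP4, WDR43, TSR1 and RRP12 fell.

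The 11 factors of large subunit processing fell into genes that were lower in both combination libraries and genes that were lower in 1 of them. RRP1B, a nucleolar partner of the large-subunit precursor, had 194 and 105 CPM in the combination, 342 and 287 CPM with VTP50469, 228 and 257 CPM with WM119, and 333 and 321 CPM with DMSO. The combination and WM119 libraries lay below both DMSO libraries, and VTP50469 overlapped DMSO. The log2 change of RRP1B was -1.13 ± 0.28 in the combination (edgeR adjusted p = 0.0524, and -0.73 without replicate 2) and -0.43 ± 0.28 with WM119 (edgeR adjusted p = 1). NOP2, a cytosine methyltransferase of large-subunit rRNA, was at 129 and 119 CPM in the combination, 146 and 139.9 CPM with VTP50469, 162 and 159 CPM with WM119, and 171 and 159 CPM with DMSO. GNL3, or nucleostemin, a GTP-binding protein abundant in stem and cancer cells, had 174 and 186 CPM in the combination, 211 and 215 CPM with VTP50469, 225 and 207 CPM with WM119, and 246 and 232 CPM with DMSO. In both genes the combination libraries were close together and below the 6 others. Their log2 changes were -0.41 ± 0.12 each (edgeR adjusted p = 0.0773 for NOP2 and 0.0809 for GNL3). The PeBoW complex, which couples large-subunit maturation to the cell cycle, has WDR12, PES1 and BOP1 as members, and none of them passed the edgeR test with all libraries. WDR12 was lower in both combination libraries (79.5 and 71.5 CPM, against 96.4 and 102 CPM in DMSO), whereas PES1 had 189 and 330 CPM, against 237 and 249 CPM in DMSO, and BOP1 414 and 732 CPM, against 522 and 528 CPM. In combination replicate 1 all 3 were lower than DMSO by similar amounts, at log2 ratios of -0.32, -0.37 and -0.34. The large-subunit assembly factors MRTO4, WDR74, PPAN and NOP16 shared this pattern, each below both DMSO libraries in combination replicate 1 and above both in replicate 2. DDX18, an RNA helicase, was lower in both combination libraries (208 and 120 CPM, against 249.8 and 248 CPM in DMSO), at -0.60 with all libraries and -0.24 without replicate 2. Without replicate 2 all 11 factors were below 0, with a median of -0.40, and GNL3, RRP1B and PPAN fell. Without replicate 1, 5 fell (WDR12, NOP2, GNL3, RRP1B and DDX18) and 4 rose: BOP1 (0.47), PES1 (0.43), WDR74 (0.45) and MRTO4 (0.50).

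Among the abundant nucleolar proteins, NCL was the steadiest. NCL, or nucleolin, an RNA-binding protein of the dense nucleolar regions, had 1707 and 1665 CPM in the combination libraries, 2094 and 2153 CPM with VTP50469, 2129 and 1955 CPM with WM119, and 2317 and 2256 CPM with DMSO. The combination libraries lay close together, replicate 2 at 0.98 times replicate 1, and below all others. The single treatments also lay below both DMSO libraries. The log2 change was -0.44 ± 0.12 (edgeR adjusted p = 0.0667). DDX21, an RNA helicase active in both rRNA transcription and processing, had 540.0 and 192 CPM in the combination, 725 and 687 CPM with VTP50469, 587 and 779 CPM with WM119, and 886 and 857 CPM with DMSO. It was lower than DMSO in every treated library, and the lowest of all ratios among the 40 genes was its log2 ratio of -2.19 in combination replicate 2. Its log2 change was -1.25 ± 0.43 (edgeR adjusted p = 0.114), and -0.68 ± 0.16 without that replicate (edgeR adjusted p = 0.0287). NPM1, or nucleophosmin, a histone and ribosomal protein chaperone, LYAR, a zinc-finger nucleolar protein, and PA2G4, or EBP1, a ribosome-associated growth regulator, had log2 changes of -0.17, -0.23 and -0.29. Per kilobase of transcript, NPM1 was the most abundant of the 40 genes, at 2047 CPM per kb in the combination and 2301 CPM per kb in DMSO. Without replicate 2, NCL, DDX21, LYAR and PA2G4 fell.

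The supply genes showed no common direction. ODC1, the first enzyme of polyamine synthesis, had 306 and 363 CPM in the combination, 349 and 373 CPM with VTP50469, 375 and 339 CPM with WM119, and 356 and 383 CPM with DMSO. The groups overlapped (log2 change -0.14 ± 0.14, edgeR adjusted p = 0.486). IMPDH2, the rate-limiting enzyme of guanine nucleotide synthesis, was at 308 and 449 CPM in the combination, 355 and 381 CPM with VTP50469, 349 and 279 CPM with WM119, and 305 and 310.3 CPM with DMSO. Both VTP50469 libraries were above both DMSO libraries, the only member of the 40 of which this was so. Its log2 change was 0.30 ± 0.20 in the combination (edgeR adjusted p = 0.329) and 0.26 ± 0.21 with VTP50469 (edgeR adjusted p = 0.999). Without combination replicate 1, IMPDH2 rose in the combination (0.53). SRM, spermidine synthase, had 218 and 339 CPM in the combination and 274 and 286 CPM in DMSO.

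**Figure D2:**
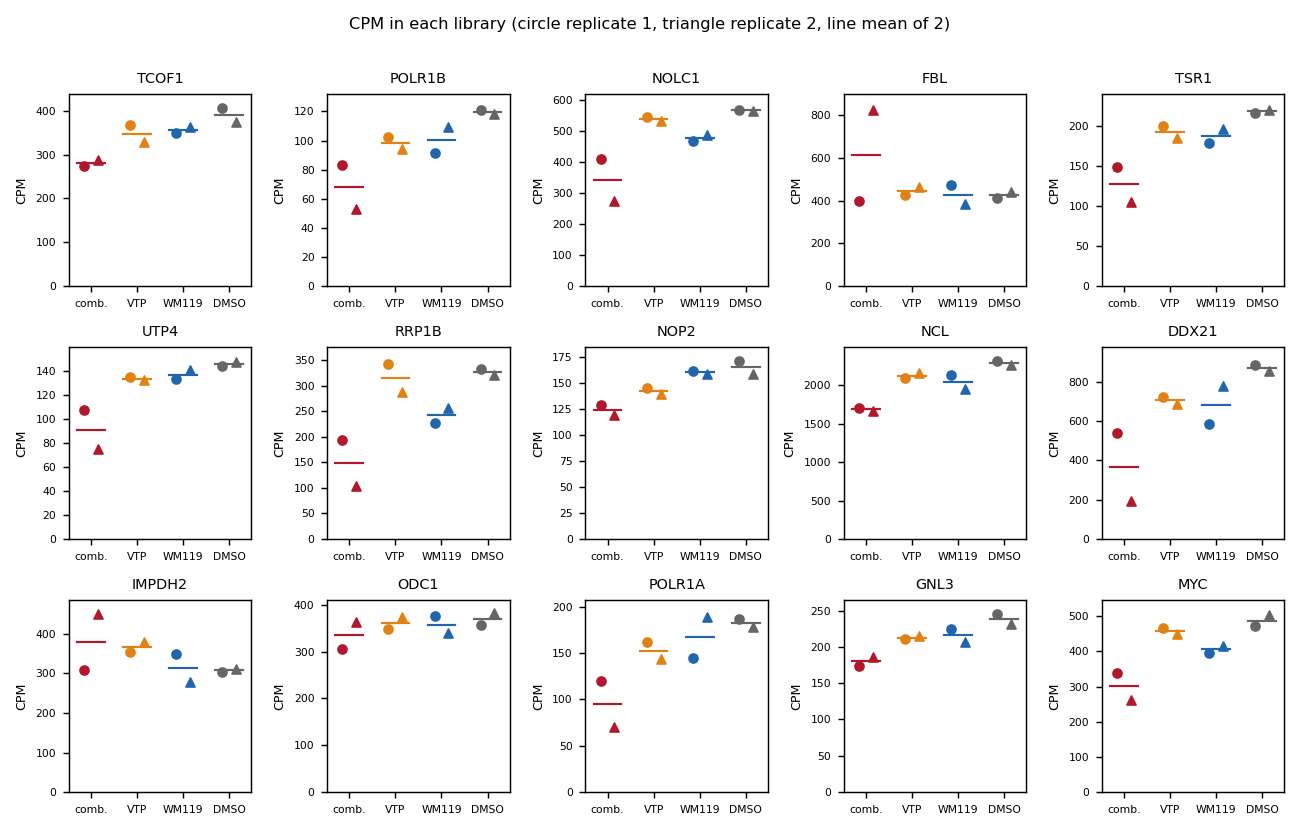
CPM in each library of 14 of the 40 genes and of MYC, with replicate 1 as circles, replicate 2 as triangles and the mean of both as a line, from the combination (comb.) and VTP50469 (VTP) to WM119 and DMSO. TCOF1, NCL, NOP2 and GNL3 have combination libraries close together and below all others, whereas DDX21, with 540.0 and 192 CPM, and FBL, with 399 and 824 CPM, have them far apart.

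Each inhibitor alone left the 40 genes close to DMSO, mostly slightly below it. With VTP50469, 0 of the 40 were called by edgeR (0.153% of all genes were called higher and 0.0161% lower), and 0 passed at an unadjusted p under 0.05 (3.83% of all genes higher and 2.92% lower). The estimate was below 0 in 35, against 50.7% of all genes, with a median log2 change of -0.11. Both VTP50469 libraries lay below both DMSO libraries in 28 of the 40 genes, against 27.6% of all genes, and above them in 1, against 27.3%. The estimates ran between -0.37 for UTP20 and 0.26 for IMPDH2. With WM119, 0 of the 40 were called (0% of all genes in each direction), and 0 passed at an unadjusted p under 0.05 (3.15% of all genes higher and 1.78% lower). The estimate was below 0 in 33, against 48.4% of all genes, with a median of -0.08. Both WM119 libraries lay below both DMSO libraries in 16 genes, against 20.9% of all genes, and above them in 1, UBTF, against 24.1%. The estimates ran between -0.43 for RRP1B and 0.14 for UBTF. Per library, 33 and 30 of the 40 genes were below both DMSO libraries with VTP50469, and 2 and 7 above both. With WM119, 19 and 34 were below and 14 and 3 above. The share of all genes was not counted for single libraries. All 3 treatments were set against the same 2 DMSO libraries.

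Set against either inhibitor alone, the combination was lower in estimate for most of the 40 genes, without a call: 30 were below 0 against VTP50469 and 31 against WM119 (49.8% and 50.5% of all genes). Against VTP50469, 0 of the 40 were called in the combination (0.161% of all genes were called lower and 0.234% higher). At an unadjusted p under 0.05, 10 were lower and 0 higher (6.82% of all genes were lower and 11.1% higher), and the median was -0.19. RRP1B had the lowest p, at a log2 change of -1.07 ± 0.28 against VTP50469 (edgeR adjusted p = 0.146). Against WM119, 0 were called (0.411% lower and 1.02% higher over all genes), 11 were lower and 0 higher at an unadjusted p under 0.05 (7.02% and 9.67% of all genes), and the median was -0.19. Without combination replicate 2, RRP1B fell against VTP50469 (0.843% of all genes did) and 0 were called against WM119. Without replicate 1, 16 fell and 5 rose against VTP50469, where 30% and 26.6% of all genes did, and 17 fell and 7 rose against WM119, where 29.4% and 24.8% did. UTP4 had the lowest p against WM119, at -0.59 ± 0.18 with both replicates (edgeR adjusted p = 0.187). The interaction, the departure of the combination from the sum of both single log2 changes, was called by edgeR in 0 of the 40 genes and reached an unadjusted p under 0.05 in 0 (0.919% of all genes lower and 1.28% higher), with a median of -0.13. Without combination replicate 2 the interaction was again called in 0, and without replicate 1 in 17 (12 lower and 5 higher, against 18.4% and 12.4% of all genes).

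Transcript length moved with the disagreement between the combination libraries. Over the 40 genes, the Spearman correlation of the log2 ratio to DMSO with the length of the canonical GENCODE transcript was -0.74 in combination replicate 2 and -0.40 in replicate 1. It was -0.55 and -0.05 in the VTP50469 libraries and -0.68 and 0.29 in the WM119 libraries (replicates 2 and 1 of VTP50469, and 1 and 2 of WM119). Over 12113 tested genes with a known length it was -0.54 in combination replicate 2 and -0.13 in replicate 1, -0.28 and 0.01 in VTP50469 replicates 2 and 1, and -0.50 and 0.09 in WM119 replicates 1 and 2. Between the shortest and the longest of 10 length bins, the median ratio of all genes ran between 0.86 and -0.89 in combination replicate 2 and between 0.28 and -0.31 in WM119 replicate 1. These are descriptions across genes that share a library, not replicates. In the 20 shorter genes (881 to 2428 bases), the median log2 ratio was -0.36 in combination replicate 1, with 19 below both DMSO libraries, and 0.15 in replicate 2, with 5 below. In the 20 longer genes (2469 to 12480 bases), it was -0.44 in replicate 1, with 19 below, and -0.89 in replicate 2, with 18 below. The matching shares of all genes were not counted. GC content moved with the disagreement too. Its Spearman correlation with the ratio was 0.61 in replicate 2 and 0.10 in replicate 1 over the 40 genes.

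**Figure D3:**
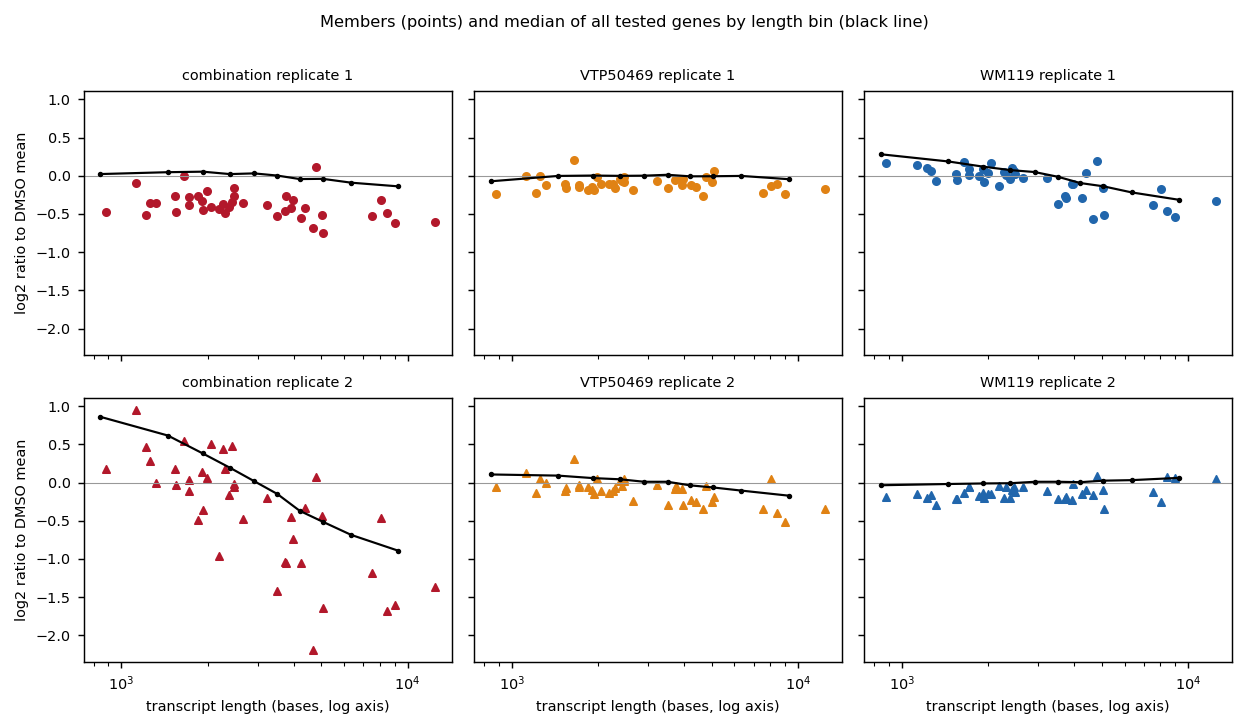
Log2 ratio to the DMSO mean against transcript length in bases (log axis), for each of the 6 treated libraries. Points are the 40 genes and the black line joins the medians of all tested genes in 10 length bins. In combination replicate 2 both fall with length, the line between 0.86 and -0.89, while in replicate 1 the points lie below a nearly level line.

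When a smooth trend on length and GC content was taken out of each library as an offset in the same edgeR test, 28 of the 40 genes fell and 0 rose, against 11.2% of all genes called lower and 12% called higher. The median log2 change was -0.44 and 38 were below 0, the exceptions being UBTF at 0.21 and WDR12 at 0.12. By role, 10 of 11 small-subunit factors fell, 7 of 11 large-subunit factors, 4 of 5 abundant nucleolar proteins, 3 of 6 snoRNP proteins, 3 of 4 genes of rRNA transcription and 1 of 3 supply genes, SRM. Of these 28 genes, 14 also fell without combination replicate 2 and 17 fell without replicate 1, while 1 of the 28, WDR74, rose without replicate 1. Of the 28, only TSR1 was also called in the main edgeR test, with all libraries and no offset. DESeq2, also with all libraries and no offset, called 12 of the 28 lower. NOP16 (-0.65), BYSL (-0.56), NPM1 (-0.42) and SRM (-0.59) were among those called with the offset alone. NCL was called neither in the main edgeR test nor with the offset (-0.26 with the offset, edgeR adjusted p = 0.109), but DESeq2 called it lower. The offset was fitted on all genes, treated and control libraries alike, and whether length itself sets the difference between the combination libraries was not tested.

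**Figure D4:**
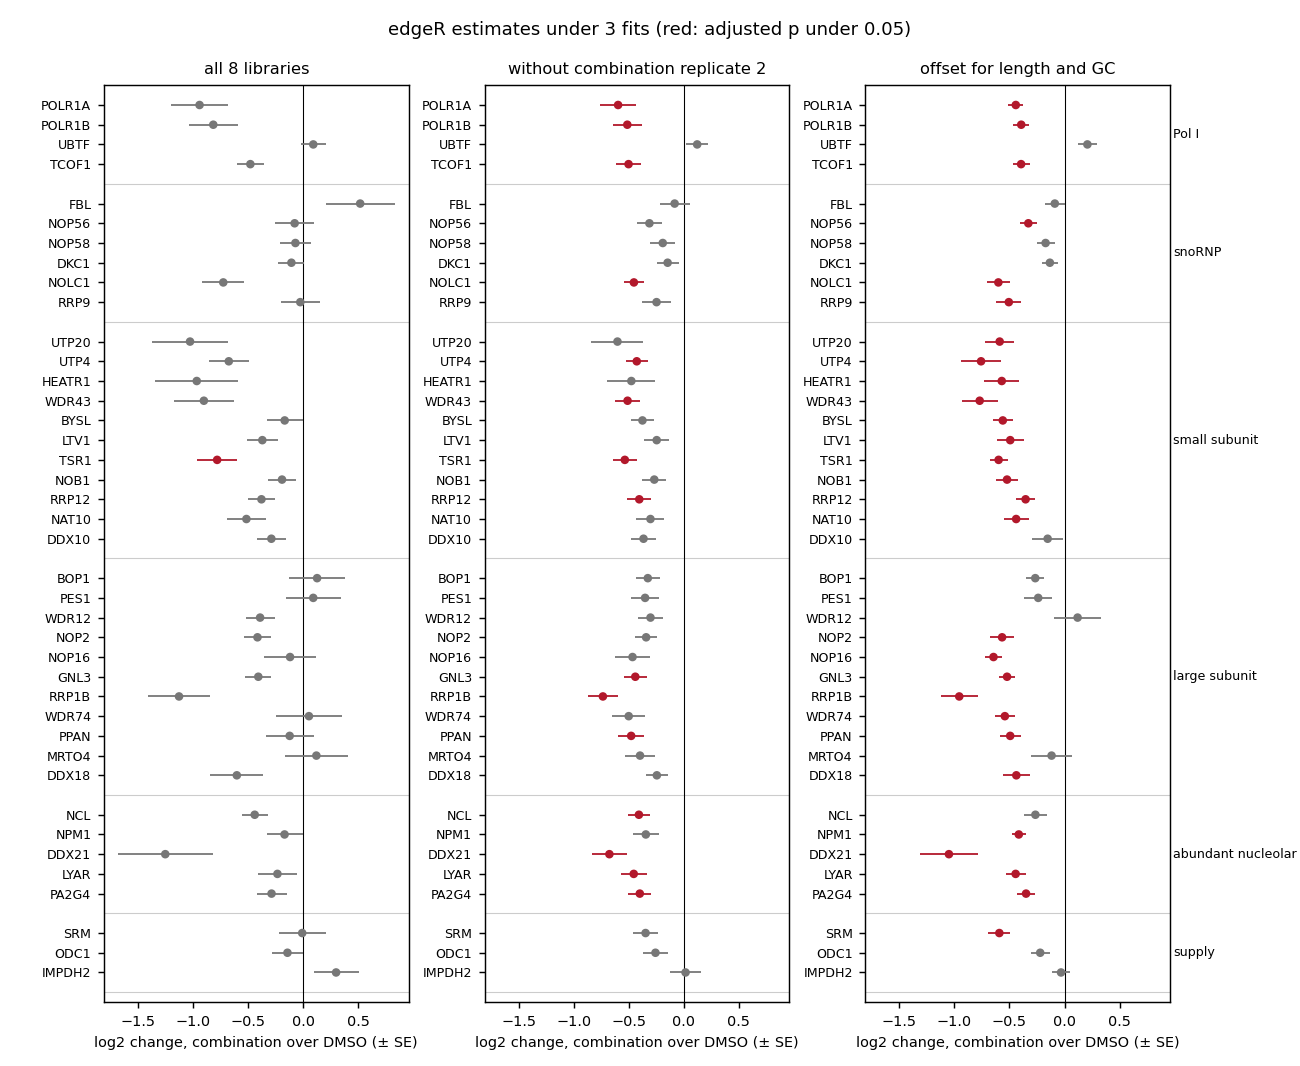
Log2 change of each of the 40 genes, combination over DMSO, with its standard error, in edgeR fits of all 8 libraries, without combination replicate 2, and with an offset for transcript length and GC content. Red marks an adjusted p under 0.05: 1 gene, 15 genes and 28 genes from left to right, all below 0.

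In the rest of the pathway lower values were also more common than higher ones. Of 166 other genes listed for ribosome biogenesis and nucleotide supply, 165 were tested. In the combination against DMSO, 9 fell and 0 rose by edgeR (3.44% and 5.85% of all genes), so the calls alone are not far above the background. The log2 change was below 0 in 109 (49.4% of all genes), and its median was -0.22 (0.01 over all genes). With the offset 61 fell and 0 rose, against 11.2% of all genes called lower and 12% called higher. With only the groups compared 0 fell, where 0 of all genes were called. NIP7, which acts on large-subunit precursors, had 88.8 and 71.7 CPM in the combination, 114 and 117 CPM with VTP50469, 118 and 108 CPM with WM119, and 141 and 138 CPM with DMSO (log2 -0.79 ± 0.14, edgeR adjusted p = 0.0227). All groups lay below DMSO, the combination lowest. CCDC86, a nucleolar protein, fell by 0.69 on the log2 scale (64.1 and 58.5 CPM, against 99.6 and 98.4 CPM in DMSO), RCL1, a small-subunit processing factor, by 0.65 (29.5 and 25.9 CPM, against 45.0 and 42.1 CPM), and GTPBP4, a nucleolar GTPase, by 0.51 (149 and 139 CPM, against 205 and 204 CPM).

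MYC itself fell in the combination. Its level was 339 and 262 CPM in the combination libraries, 466 and 449 CPM with VTP50469, 396 and 415 CPM with WM119, and 472 and 502 CPM with DMSO. The treated libraries all lay below both DMSO libraries, with VTP50469 nearest to them. The log2 change of MYC was -0.70 ± 0.15 in the combination (edgeR adjusted p = 0.0379) and -0.60 with the offset, both called. MYC was not called with only the groups compared, where 0 of all genes were called. Its log2 change without replicate 2 was -0.51. With WM119 it was -0.26 (edgeR adjusted p = 1) and with VTP50469 -0.09 (edgeR adjusted p = 0.999). Genes with and without the E-box had similar ratios: in combination replicate 1 the median was -0.36 in the 12 genes with the hexamer and -0.44 in the 20 without it, and in replicate 2 it was -0.22 and -0.14. UTP20, UTP4 and WDR43, whose E-boxes are printed above, were lower in both combination libraries. So was TSR1, which lacks it, while FBL was just below both DMSO libraries in combination replicate 1 and far above them in replicate 2.

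Some of the 40 genes share sequence or position with others, and whether the counting used strand is not given in the sources used here. On the opposite strand, NOP16 overlaps HIGD2A (120.4 to 256 CPM), UTP4 overlaps CHTF8 (101 to 133 CPM), GNL3 overlaps PBRM1 (40.5 to 121 CPM) and GLT8D1 (27.4 to 34.7 CPM), HEATR1 overlaps LGALS8 (32.2 to 52.7 CPM) and TSR1 overlaps SRR (4.44 to 10.8 CPM), so their reads cannot be told apart without strand. HEATR1, TSR1 and NPM1 had fractional counts in all 8 libraries and PPAN in 7. Whether reads were divided between genes there was not tested. NPM1 has near-identical pseudogene copies, and PPAN shares its locus with a PPAN-P2RY11 readthrough, so their levels are uncertain.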

How the data were processed

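Bulk RNA of 8 MOLM-13 libraries was sequenced, 2 in each of 4 groups. Per the labels, the study's methods and the submitters' processing notes, the authors mapped 150 bp paired-end reads to hg38 with STAR 2.5.1b. The deposited table holds expected counts (estimated counts per gene symbol), not normalized. How reads were counted, on which strand and with which annotation is not stated in those sources. Of values above 0, 11.4% to 16.6% per library were not whole, and all were rounded. The paper and the labels name different media and kits, so these were not used.

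The main test was the quasi-likelihood F test of edgeR 4.0.16 under R 4.3.3, on 12401 of 26475 genes kept by filterByExpr. TMM factors scaled the libraries, and all 4 groups entered 1 model (common dispersion 0.0457, 4 residual and 2.88 prior degrees of freedom). Benjamini-Hochberg adjustment covered all tested genes, and an adjusted p under 0.05 made a call. "Rose" and "fell" are used for called genes. CPM are counts scaled to library size with TMM factors. Log2 changes are given with their standard errors. Each treatment was compared with DMSO, the combination also with either inhibitor alone, and an interaction was fitted. Transcript length and GC content came from GENCODE 44 (12113 of the tested genes), and the offset from a loess per library (span 0.4). Alternatives were RLE factors, library size alone, other count filters, DESeq2 1.42.0 (16403 genes with at least 1 count), limma 3.58.1 voom with library weights, a replicate block, only the groups compared, the offset, and each library left out. The code was checked on simulated data.

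The genes and lists were chosen with earlier results of these data known. Values in every library were given for the 2 genes of each role group and the 10 genes overall with the lowest p in the combination against DMSO, 14 in all. UBTF, WDR12, PES1, BOP1, DDX18 and SRM were added after their values were seen. From the other pathway genes, the 4 with the lowest p were named.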

Additional observations from a re-analysis of the deposited data

How the results depend on the processing

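In the combination against DMSO, 1 of the 40 genes was called by edgeR. This count was 3 with library size alone (TCOF1, GNL3 and NCL), 2 without a count filter, 2 with at least 10 counts in every library, 13 with DESeq2, 28 with the offset for length and GC content, and 0 with limma voom and library weights, with only the groups compared and with the replicate block. Leaving out 1 library at a time gave 0 to 25, with medians of -0.39 to -0.20. Over all genes the call counts were 1152 by edgeR, 2255 with DESeq2, 924 with library size alone, 528 with the block, 366 with voom, 2876 with the offset and 69 to 7756 with 1 library left out. With only the groups compared, 0 of all genes were called, so the 0 of the 40 there says nothing about these genes. Without a count filter, 2.65% of all genes were called lower and 4.55% higher. Library size alone put the median of all genes at -0.10, against 0.01 with TMM factors. Under it, 38 of the 40 genes were below 0, with a median of -0.41. For VTP50469 against DMSO, 4 of the 40 were called with only the groups compared (POLR1B, UTP20 and DDX21 lower, IMPDH2 higher), where 5.16% of all genes were lower and 5.98% higher, and 0 otherwise. For WM119 against DMSO, the median was -0.11 with the offset and -0.148 to -0.0386 with 1 library left out. For the combination against VTP50469, DESeq2 called 1 lower (1.26% of all genes), the offset 8 lower (2.34%), and fits without 1 library 0 to 21 (0 to 7222 of all genes). Against WM119 these were 6 lower with the offset (3.18% of all genes) and 0 to 24 without 1 library (1 to 6915 of all genes). The interaction was called in 0 to 17 without 1 library (0 to 3938 of all genes). FBL turned to -0.0881 with the offset and ran between -0.0832 and 0.936 without 1 library, and IMPDH2 was -0.0316 with the offset. The cause of these shifts was not tested. The replicate numbers of the groups share only a number: correlations of same-numbered deviations between groups ran from -0.44 to 0.17, so no pairing was assumed. Depth was 18092906 to 23634468 counts per library.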

Other observations

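Among the other pathway genes, 2 lists changed the sign of their median with combination replicate 2. The 12 other snoRNP genes had a median log2 change, combination over DMSO, of 0.15 with all libraries, -0.19 without that replicate and -0.23 with the offset for length and GC content. Of them, 0 fell with all libraries (3.44% of all genes did) and 4 with the offset (11.2% of all genes). The 15 genes of the exosome and the exonucleases, which trim rRNA precursors, had medians of 0.08, -0.18 and -0.26 in the same 3 fits. Of these, 0 fell with all libraries and 3 with the offset, against the same shares of all genes. The lists of small and of large subunit processing kept a median below 0 in all of these fits, at -0.25, -0.21 and -0.21 over 48 genes, and at -0.24, -0.31 and -0.26 over 55 genes.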
